A study of Mus musculus with 24 samples.

Results

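The 10 genes described here encode the enzymes that build serine, glycine, proline and asparagine from glucose-derived carbon, glutamate and aspartate, 3 enzymes that carry the carbon of serine into the folate cycle, and Atf4, the transcription factor that governs many of them. They were chosen by symbol, through the Ensembl identifiers of the deposited counts and GENCODE M1, and are 10 of the 37991 genes in the table. All 10 passed the filter on low counts, as did 14918 genes in all.

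RNA was sequenced from mammary tissue of female mice aged 6, 8, 10 or 12 weeks, 3 per genotype and age. PyMT mice were F1 females on the FVB background, heterozygous for a transgene in which the MMTV promoter, active mainly in mammary epithelium, drives the middle T antigen of polyoma virus. The label for their lesions was hyperplasia in week 6, adenoma/MIN (mammary intraepithelial neoplasia) in week 8, early carcinoma in week 10, then late carcinoma in week 12. FVB controls of the same age carried no transgene and gave normal glands. The labels name no treatment. Glands and tumors were snap-frozen, and no sorting of cells is described. A pathologist judged the carcinoma samples to consist mostly of tumor cells, with little stroma or muscle. In such bulk samples fewer cells of a type and less RNA per cell cannot be told apart, and a lesion rich in epithelium is set against a gland rich in fat.

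Serine is made from a glycolytic intermediate in 3 steps, catalyzed by Phgdh (phosphoglycerate dehydrogenase, the entry step), Psat1 (phosphoserine aminotransferase) and Psph (phosphoserine phosphatase). Shmt1 in the cytosol and Shmt2 in mitochondria split serine into glycine and a folate-bound carbon unit, which Mthfd2 oxidizes in mitochondria for purine and thymidylate synthesis. Aldh18a1 and Pycr1 perform the first and the last step from glutamate to proline, a major residue of collagen, and Asns transfers an amide nitrogen from glutamine to aspartate to give asparagine. Translation of Atf4 increases when the integrated stress response is switched on, for example by lack of amino acids, and the protein then activates genes through C/EBP-ATF response elements, so that much of its regulation is not visible in its mRNA level.

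Because such elements are known for this pathway, the promoters of the 10 genes (250 bases before to 50 after the start of transcription, RefSeq, GRCm38.p6) were searched on both strands for TGATGNAA, a core form of the element. The 10 genes had 11 promoters in the table, since Psat1 had 2. Asns and Pycr1 held a match, which is printed in capitals.
Asns promoter: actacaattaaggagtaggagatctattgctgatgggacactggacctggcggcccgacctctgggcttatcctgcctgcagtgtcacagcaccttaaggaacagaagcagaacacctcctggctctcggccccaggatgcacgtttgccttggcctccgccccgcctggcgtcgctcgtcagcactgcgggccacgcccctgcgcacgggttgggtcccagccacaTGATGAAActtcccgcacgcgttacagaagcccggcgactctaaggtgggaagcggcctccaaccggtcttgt
Pycr1 promoter: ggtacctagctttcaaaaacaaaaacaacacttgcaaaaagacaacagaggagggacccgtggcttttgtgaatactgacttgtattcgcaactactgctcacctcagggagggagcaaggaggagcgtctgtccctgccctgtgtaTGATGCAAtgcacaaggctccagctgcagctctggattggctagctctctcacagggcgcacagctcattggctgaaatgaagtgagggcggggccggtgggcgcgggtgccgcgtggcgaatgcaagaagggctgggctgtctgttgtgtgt
The Asns promoter lies at chr6:7693160-7693459 and the Pycr1 promoter at chr11:120643699-120643998, both on the minus strand. The match in Asns read TGATGAAA on the strand of the gene and began 23 bases before the start site, and that in Pycr1 read TGATGCAA and began 103 bases before it. Of 32851 promoters in the table, 1304 (3.97%) held the motif. A match describes these letters and is not a measured binding site.

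On mm9, the build of the counts, Phgdh (ENSMUSG00000053398) lies on chromosome 3 at 98117093 to 98143913, Psat1 (ENSMUSG00000024640) on chromosome 19 at 15979168 to 16021827, and Psph (ENSMUSG00000029446) on chromosome 5 at 130271434 to 130293129. Shmt1 (ENSMUSG00000020534) lies on chromosome 11 at 60601606 to 60625220, Shmt2 (ENSMUSG00000025403) on chromosome 10 at 126954195 to 126959491, and Mthfd2 (ENSMUSG00000005667) on chromosome 6 at 83255685 to 83267600. Asns (ENSMUSG00000029752) lies on chromosome 6 at 7625169 to 7643254, Aldh18a1 (ENSMUSG00000025007) on chromosome 19 at 40624747 to 40662953, Pycr1 (ENSMUSG00000025140) on chromosome 11 at 120497026 to 120505083, and Atf4 (ENSMUSG00000042406) on chromosome 15 at 80085614 to 80087970. Counts are over the exons of each gene. Exons of Shmt1 shared 184 bases with Smcr8 and those of Shmt2 shared 14 bases with Ndufa4l2, both on the opposite strand. Their summed counts were 18470 for Smcr8 beside 11777 for Shmt1 and 612 for Ndufa4l2 beside 11727 for Shmt2. Libraries were directional, but the strand setting of the counting is not given in the sources used here.

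Total counts ran from 6969375 to 13516601 per library. In 13 libraries a plot of how many genes have each count showed a separate peak at 8 to 25 counts (read packets below), and these included every PyMT library from week 6 and every FVB library from week 10. The share of genes at 0 among those with a median of 10 to 30 CPM was highest in FVB week 10 replicate 3 (4.4%) and PyMT week 8 replicate 2 (2.87%). Over all weeks, 9 of 12 epithelial markers were higher in PyMT, and their summed normalized count was 30686 to 53890 in PyMT and 5421 to 23627 in FVB. All 8 adipocyte markers (956 to 13666 in PyMT, 40479 to 98551 in FVB), 10 of 10 muscle markers (0 to 31199 and 89.9 to 560386), 6 of 7 fibroblast markers (25640 to 50939 and 53187 to 197490) and 6 of 6 endothelial markers (682 to 1870 and 4278 to 7769) were lower in PyMT. The 6 macrophage markers did not pass the test (3200 to 6206 in PyMT, 3066 to 6767 in FVB), and lymphocyte markers summed to at most 52.5 and 117. At least 1 library listed a 0 for each of the muscle and lymphocyte markers, and no marker of the other lists was at 0 in any library. By week, 6, 4, 9 and 8 of the 12 epithelial markers were called higher at weeks 6, 8, 10 and 12, all 8 adipocyte markers were called lower in each week, and 0, 2, 0 and 8 of the 10 muscle markers were called lower. Their part in the differences given below was not tested.

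Over the 4 weeks together, 5 of the 10 genes rose in PyMT and none fell: Psat1, Shmt1, Shmt2, Aldh18a1 and Pycr1. A gene was called when its p in the quasi-likelihood test of edgeR, adjusted by Benjamini-Hochberg over 14918 genes, was under 0.05 and its fold change above 2, and by that rule 8.7% of all tested genes were higher and 17.5% lower. The median log2 fold change of the 10 genes was 0.79, beside -0.03 over all genes tested. The 5 genes that did not pass were Phgdh, Psph, Mthfd2, Asns and Atf4. The call of 5 genes was made whichever of the 24 libraries was left out.

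**Figure D1:**
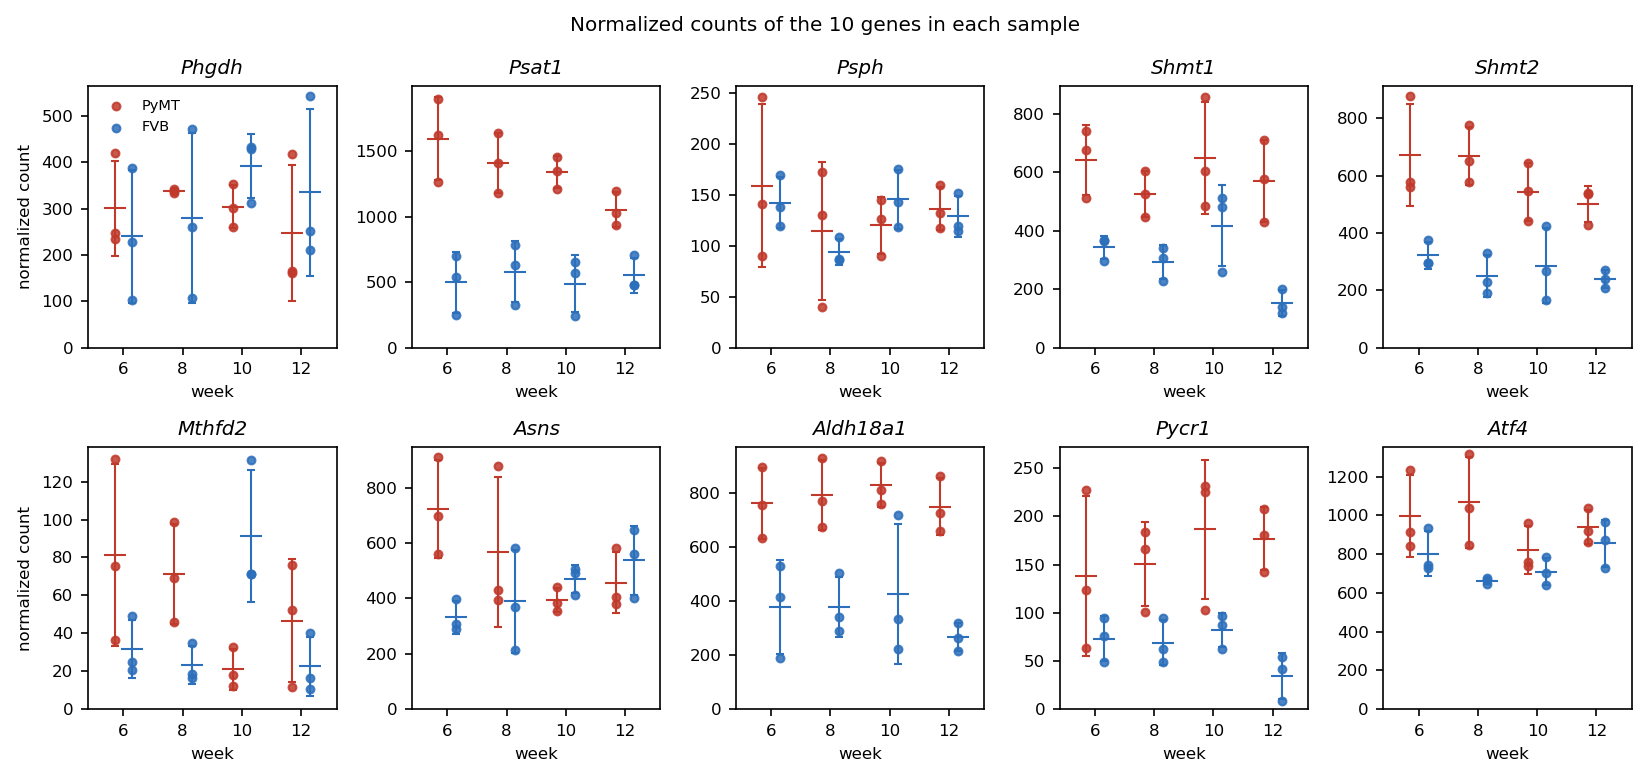
Normalized counts of the 10 genes (linear axes from 0, 1 panel a gene) by week, with PyMT in red and FVB in blue, a point for each of the 24 libraries, and lines for the mean and SD of each group (n = 3). Psat1 and Shmt2 of all 12 PyMT libraries lie above all 12 FVB libraries, while the groups overlap in Phgdh, Psph and Asns.

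The plot of values by week shows the split within the serine steps, in which the enzyme of the middle step differed between genotypes while those of the first and the last did not pass the test. Psat1 reached normalized counts (counts over the size factor of the library) of 1620, 1263 and 1899 in PyMT at week 6, beside 247, 541 and 702 in FVB. At week 8 its values were 1405, 1180 and 1640 in PyMT and 328, 627 and 783 in FVB. Every PyMT library lay above every FVB library of its week. At week 10 the values were 1454, 1208 and 1351 against 569, 655 and 243, and at week 12 they were 932, 1029 and 1199 against 476, 475 and 707. The lowest PyMT value over all weeks, 932, thus lay above the highest FVB value, 783. The log2 fold change of Psat1 passed in the first 3 weeks, with 1.68 ± 0.36 (SE), 1.30 ± 0.33 and 1.50 ± 0.35 for weeks 6, 8 and 10 (adjusted p = 0.0212, 0.0427 and 0.0243). In week 12 it was 0.98 ± 0.21 (adjusted p = 0.0105), just under a fold change of 2. Over all weeks Psat1 was 2.55-fold higher (log2 1.35 ± 0.18, adjusted p = 2.34e-06).

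Phgdh, the entry enzyme, spanned 160 to 419 with a median of 317 in the 12 PyMT libraries and 103 to 542 with a median of 286 in the 12 FVB libraries. No PyMT library lay above the highest FVB library, and both the lowest and the highest value came from FVB glands. The log2 difference over all weeks was -0.03 ± 0.25 (SE, adjusted p = 0.928) and it changed sign, to 0.22, when libraries were scaled by their size only. At week 8, 107, 261 and 472 in FVB lay on both sides of 333, 338 and 343 in PyMT. The weekly log2 differences were 0.33 ± 0.47, 0.28 ± 0.47, -0.31 ± 0.26 and -0.38 ± 0.48 for weeks 6, 8, 10 and 12, none of which passed. Psph, the phosphatase, was low, at 40.3 to 247 with a median of 131 in PyMT and 86.1 to 175 with a median of 120 in FVB. Its 2 extreme values were both PyMT, 247 at week 6 replicate 1 and 40.3 at week 8 replicate 2. The log2 difference of Psph over all weeks was 0.08 ± 0.22 (SE, adjusted p = 0.779), and no week passed the test.

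Both serine hydroxymethyltransferases rose in PyMT over all weeks. Shmt2, the mitochondrial form, was 578, 559 and 876 in PyMT beside 294, 294 and 377 in FVB at week 6, and 577, 778 and 651 against 189, 228 and 330 at week 8. At week 10 Shmt2 was 645, 545 and 443 against 268, 426 and 164, and at week 12 it was 536, 428 and 538 against 270, 241 and 209. All 12 PyMT libraries lay above all 12 FVB libraries, although by little where PyMT at 428 (week 12) met FVB at 426 (week 10). The log2 fold change passed with 1.06 ± 0.25 (SE), 1.43 ± 0.27 and 1.11 ± 0.20 for weeks 6, 8 and 12 (adjusted p = 0.0324, 0.0159 and 0.00526). In week 10 it was 0.97 ± 0.36 and did not pass (adjusted p = 0.112). Over all weeks Shmt2 was 2.19-fold higher (log2 1.13 ± 0.14, adjusted p = 1.29e-06).

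Shmt1, the cytosolic form, was 511, 743 and 677 in PyMT beside 298, 366 and 368 in FVB at week 6, and 525, 447 and 606 against 230, 306 and 342 at week 8. At week 10 Shmt1 was 605, 858 and 484 against 259, 512 and 482, where the groups overlapped. At week 12 it was 577, 428 and 710 against 202, 137 and 118. The 3 FVB glands of week 12 were the lowest of all 24 libraries, and PyMT replicate 2 of that week, at 428, was the lowest of the 12 PyMT libraries. The log2 fold change of Shmt1 was largest there, 1.96 ± 0.29 (SE, adjusted p = 0.00191), and it was under a fold change of 2 earlier, with 0.90 ± 0.22, 0.86 ± 0.25 and 0.69 ± 0.32 for weeks 6, 8 and 10 (adjusted p = 0.0344, 0.0665 and 0.191). Over all weeks Shmt1 was 2.13-fold higher (log2 1.09 ± 0.14, adjusted p = 1.61e-06).

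Mthfd2, the mitochondrial folate dehydrogenase downstream of Shmt2, was the most weakly expressed of the 10 genes and varied the most. Its normalized counts were 132, 36.5 and 75.5 in PyMT beside 20.9, 24.7 and 49.3 in FVB at week 6, and 45.8, 98.4 and 69.4 against 16.4, 18.6 and 35.0 at week 8. At week 10 the order turned, with 32.9, 17.8 and 11.9 in PyMT and 71.2, 71.1 and 131 in FVB, and at week 12 the values were 52.4, 11.8 and 75.8 against 10.8, 40.3 and 16.4. Every PyMT library was above every FVB library at week 8 and below every FVB library at week 10. The log2 difference for weeks 6, 8, 10 and 12 was 1.36 ± 0.73, 1.61 ± 0.71, -2.06 ± 0.78 and 1.10 ± 0.86 (SE, adjusted p = 0.280, 0.190, 0.117 and 0.386), so that no week passed edgeR's test. DESeq2's Wald test called week 10 (log2 -2.08, adjusted p = 0.0269), as it did 2918 of 14918 tested genes in either direction. The raw counts behind the week 10 values were 37, 17 and 14 in PyMT and 99, 71 and 84 in FVB. The FVB libraries of that week had count peaks at 12, 13 and 19. Among its PyMT libraries, replicate 2 (17 counts) had a count peak at 15, and replicates 1 and 3 had none. The part of these packets in the difference was not tested. The change of the difference from week 8 to week 10, a test added after seeing the data, was not called for Mthfd2 or any other of the 10 genes, and was called for 0.0067% of tested genes.

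Both genes of proline synthesis among the 10 were higher in PyMT over all weeks. Among PyMT libraries Aldh18a1 varied by 13.1% and Pycr1 by 34.5% (SD over mean, n = 12), and r between them was -0.11. Aldh18a1, the synthase of pyrroline carboxylate from glutamate, was 756, 631 and 895 in PyMT beside 188, 416 and 529 in FVB at week 6, and 673, 769 and 929 against 289, 342 and 502 at week 8. At week 10 it was 916, 810 and 759 against 333, 719 and 224, and at week 12 it was 657, 727 and 863 against 214, 320 and 265. PyMT lay above FVB without overlap in each week, and the only FVB library that reached the PyMT range was week 10 replicate 2, at 719. The log2 fold change of Aldh18a1 passed with 1.08 ± 0.27 (SE) in week 8 and 1.54 ± 0.21 in week 12 (adjusted p = 0.0399 and 0.00145). It was 1.01 ± 0.36 in week 6 and 1.01 ± 0.40 in week 10 (adjusted p = 0.110 and 0.133). Over all weeks Aldh18a1 was 2.22-fold higher (log2 1.15 ± 0.18, adjusted p = 1.58e-05).

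Pycr1, the reductase that completes proline in mitochondria, was 63.2, 124 and 227 in PyMT beside 48.7, 94.9 and 75.8 in FVB at week 6, and 184, 166 and 101 against 49.2, 62.8 and 94.9 at week 8. At week 10 it was 103, 232 and 225 against 62.5, 96.2 and 87.6, and at week 12 it was 208, 142 and 181 against 8.07, 41.6 and 53.6. Only PyMT week 6 replicate 1 lay inside the FVB range, and the lowest FVB value, 8.07, rested on 6 counts. The log2 fold change of Pycr1 passed at week 12 (2.39 ± 0.60, SE, adjusted p = 0.0196) and was 0.92 ± 0.57, 1.13 ± 0.46 and 1.24 ± 0.46 at weeks 6, 8 and 10 (adjusted p = 0.347, 0.155 and 0.114). Over all weeks Pycr1 was 2.66-fold higher (log2 1.41 ± 0.27, adjusted p = 0.000209), the largest difference among the 10 genes. Of the 2 genes whose promoters held the motif, Pycr1 was thus called over all weeks and Asns was not.

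Asns, the asparagine synthetase, was 562, 910 and 698 in PyMT beside 306, 400 and 290 in FVB at week 6, where all PyMT libraries lay above FVB and the test passed (log2 1.11 ± 0.24, SE, adjusted p = 0.0233). At week 8 it was 394, 880 and 429 against 584, 215 and 370, and the high PyMT value came from replicate 2, 1 of the libraries with many genes at 0. At week 10 Asns was 440, 385 and 355 against 506, 413 and 493, and at week 12 it was 381, 405 and 584 against 648, 562 and 402. In both carcinoma weeks the groups overlapped. The log2 difference was 0.54 ± 0.43, -0.21 ± 0.22 and -0.18 ± 0.25 for weeks 8, 10 and 12 (adjusted p = 0.458, 0.581 and 0.631), and scaling by library size only turned the values of weeks 10 and 12 to 0.10 and 0.14. Over all weeks the log2 difference of Asns was 0.30 ± 0.16 (adjusted p = 0.119).

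Atf4 mRNA was high in all libraries and differed little. Its normalized count ran from 737 to 1317 with a median of 917 in PyMT and from 643 to 967 with a median of 728 in FVB, and 4 PyMT libraries lay above the highest FVB library. At week 8 the 3 PyMT values, 846, 1317 and 1038, were all above the FVB values of 667, 645 and 675. Over all weeks Atf4 was 1.27-fold higher in PyMT (log2 0.35 ± 0.09, SE, adjusted p = 0.00392), which is past the threshold on p but under the fold change of 2. The weekly log2 differences of Atf4 were 0.31 ± 0.22, 0.70 ± 0.20, 0.26 ± 0.20 and 0.19 ± 0.17, with adjusted p of 0.413, 0.0633, 0.436 and 0.462.

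**Figure D2:**
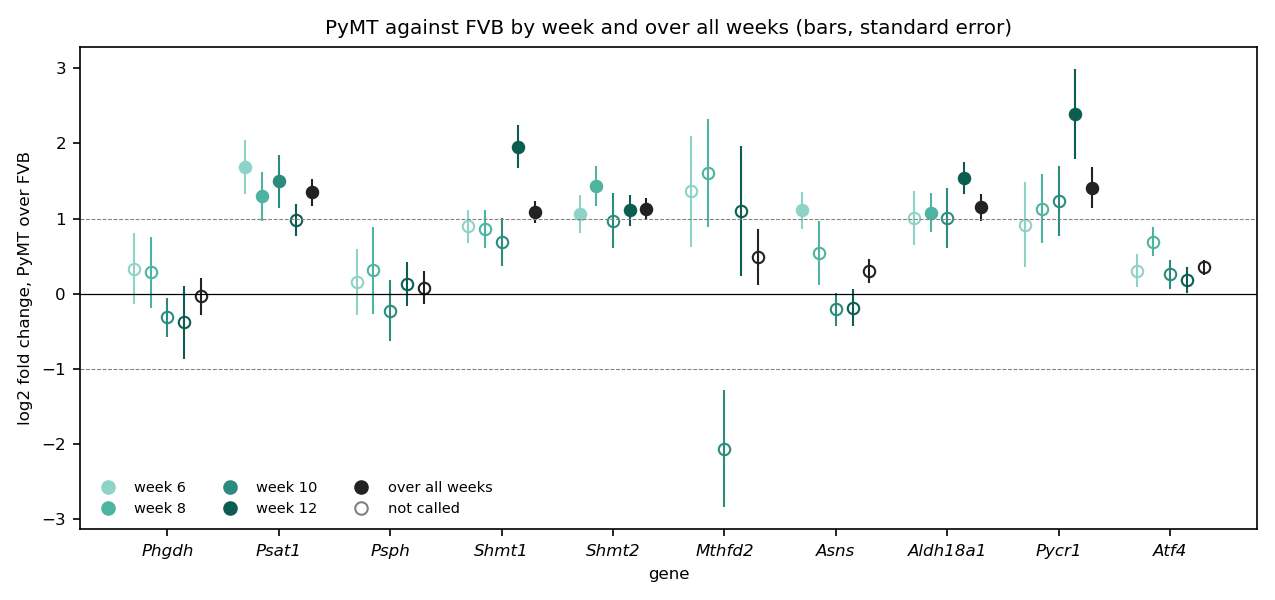
Log2 fold change of PyMT against FVB with its SE for each of the 10 genes at each week (shades of green) and over all weeks (black), with filled points for genes that passed both thresholds. Over all weeks 5 genes passed, all of them higher in PyMT, and Mthfd2 was the gene with the widest swing, from 1.61 at week 8 to -2.06 at week 10.

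Counted week by week, as in the plot of fold changes, 3 genes rose at week 6 (Psat1, Shmt2 and Asns), 3 at week 8 (Psat1, Shmt2 and Aldh18a1), 1 at week 10 (Psat1) and 4 at week 12 (Shmt1, Shmt2, Aldh18a1 and Pycr1). No gene fell by edgeR's test. DESeq2, which called 2918 of 14918 tested genes at week 10, called Mthfd2 lower there. Of all tested genes, 3.58%, 3.57%, 4.83% and 7.75% were called higher in these weeks, and 6.46%, 6.37%, 9.09% and 13% lower. The median log2 fold change of the 10 genes was 0.97, 0.97, 0.47 and 1.04, beside -0.08, -0.04, 0.01 and -0.00 over all genes. Scaling by library size only moved the median of all genes up by 0.24 to 0.32 in the weekly comparisons and by 0.29 over all weeks, and the same 5 genes were called over all weeks.

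All PyMT libraries lay above all FVB libraries in 5 of the 10 genes at week 6, where 16.2% of tested genes did so. These were Psat1, Shmt1, Shmt2, Asns and Aldh18a1. At week 8 there were 7 (18.4% of tested genes), namely Psat1, Shmt1, Shmt2, Mthfd2, Aldh18a1, Pycr1 and Atf4. At week 10 there were 4 (18.9%), Psat1, Shmt2, Aldh18a1 and Pycr1, and 1 gene, Mthfd2, lay below throughout (21.6%). At week 12 there were 5 (21.5%), Psat1, Shmt1, Shmt2, Aldh18a1 and Pycr1. Over all 12 against 12 libraries, Psat1 and Shmt2 were separated, as were 4.67% of tested genes.

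The weekly counts of called genes changed when 1 library was left out, which leaves 2 mice in 1 group. The share of all tested genes called in these fits was not taken. Log2 fold changes at week 6 then ran from 1.38 to 2.05 in Psat1, 0.85 to 1.24 in Shmt2 and 0.98 to 1.31 in Asns. For week 8 they were 1.03 to 1.60 in Psat1, 1.29 to 1.72 in Shmt2 and 0.92 to 1.37 in Aldh18a1. Psat1 at week 10 ran from 1.18 to 1.76. At week 6 the 3 genes became 2 without PyMT replicate 2, FVB replicate 1 or FVB replicate 3. They became 1 without FVB replicate 2 and 0 without PyMT replicate 3. Without PyMT replicate 1 the count was also 2, but these were Asns and Shmt1. There Psat1 (adjusted p = 0.0716) and Shmt2 (adjusted p = 0.0591) lost their calls, while Shmt1 was added (log2 1.08, adjusted p = 0.0434). At week 8 the 3 genes became 0 without PyMT replicate 1, PyMT replicate 3 or FVB replicate 2, 1 without PyMT replicate 2, and 2 without FVB replicate 1. At week 10 the single gene was lost without any 1 of the PyMT replicates or FVB replicate 1, and without FVB replicate 2 there were 3, with Shmt2 (log2 1.37, adjusted p = 0.0395) and Aldh18a1 (log2 1.61, adjusted p = 0.0124) added. At week 12 the count stayed between 3 and 5, and Psat1 was added without PyMT replicate 1 (adjusted p = 0.0194) or FVB replicate 3 (adjusted p = 0.00723). Shmt2 and Aldh18a1 at week 12 and Shmt1 at week 12 passed whichever library was left out, while Pycr1 at week 12 did not without PyMT replicate 1 (adjusted p = 0.0547) or PyMT replicate 3 (adjusted p = 0.0669).

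Over all weeks, 4 FVB libraries with a summed count of muscle markers above 100000 (week 6 replicates 1 and 2, week 10 replicate 3 and week 12 replicate 1) were left out in an alternative chosen after seeing the data. Then 4 of the 10 genes were called, since Aldh18a1 came to a log2 fold change of 0.94 (adjusted p = 0.000108), under a fold change of 2. In another such alternative, weeks 6 and 10 were left out, in which all libraries of 1 genotype had count packets. All 5 genes remained, with log2 fold changes of 1.13 for Psat1, 1.40 for Shmt1, 1.26 for Shmt2, 1.30 for Aldh18a1 and 1.76 for Pycr1.

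No change from hyperplasia to late carcinoma passed the test in any of the 10 genes. The test of the PyMT against FVB difference at week 12 minus that at week 6 called 0 of them (2 had an unadjusted p under 0.05, Asns and Shmt1) and 0% of all tested genes (691 genes had an unadjusted p under 0.05), as did the comparison of week 12 with week 6 within PyMT (0%, 1004 genes) and within FVB (0%, 625 genes). DESeq2's Wald test called 10, 97 and 19 genes of the table in these comparisons and none of the 10 genes. In the difference of differences, the largest values among the 10 were those of Asns, Shmt1 and Pycr1. Within PyMT the largest was that of Mthfd2, -0.80 ± 0.73 (SE, adjusted p = 0.945). For Asns the log2 difference of differences was -1.32 ± 0.45 (SE, unadjusted p = 0.00825, adjusted p = 0.923), with -0.65 ± 0.32 within PyMT and 0.67 ± 0.32 within FVB. For Shmt1 it was 1.04 ± 0.40 (unadjusted p = 0.0160, adjusted p = 0.973), with -0.16 ± 0.28 within PyMT and -1.20 ± 0.29 within FVB (unadjusted p = 0.000400, adjusted p = 0.373). For Pycr1 it was 1.47 ± 0.77 (adjusted p = 1.00), with 0.35 ± 0.53 within PyMT and -1.12 ± 0.56 within FVB. In Shmt1 and Pycr1 the value within FVB was thus the larger of both genotypes' values.

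Ranked over the 8 groups, the means of Psat1 were 1594 ± 319 (SD, n = 3), 1408 ± 230, 1338 ± 123 and 1053 ± 135 for PyMT in weeks 6, 8, 10 and 12, above the FVB means, 579 ± 231, 553 ± 134, 497 ± 231 and 489 ± 218 at weeks 8, 12, 6 and 10. The step from PyMT week 10 to PyMT week 12 and that from PyMT week 12 to FVB week 8 exceeded the larger SD of the neighbours, and the other steps did not. In Shmt2 the steps from PyMT week 8 (669 ± 102) to PyMT week 10 (544 ± 101) and from PyMT week 12 (501 ± 62.5) to FVB week 6 (322 ± 47.9) did so. In Aldh18a1 the step from PyMT week 12 (749 ± 105) to FVB week 10 (426 ± 260) was the only such step. In Shmt1 and Pycr1 it was the step down to FVB week 12, from 293 ± 57.6 to 152 ± 43.8 and from 69.0 ± 23.5 to 34.4 ± 23.6. No neighbours in the order of Phgdh, Psph, Mthfd2, Asns or Atf4 were apart by more than the larger SD.

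Per kilobase of exon, Atf4 was the most abundant of the 10 genes, with a median normalized count per kb of 532 in PyMT and 422 in FVB. Psat1 followed in PyMT with 307 and Shmt2 with 249, beside 131 and 118 in FVB. Asns, at 149 per kb in FVB, ranked above both of these in the normal gland and reached 159 in PyMT. Aldh18a1 had 192 and 82.2, Shmt1 152 and 77.7, and Phgdh 128 and 115 per kb in PyMT and FVB. The lowest were Psph (72.1 and 65.9), Pycr1 (44.1 and 15.9) and Mthfd2 (18.0 and 11.0). In both genotypes, the median of Psat1 per kb was thus above those of both its neighbours in the serine pathway. It was 307 beside 128 and 72.1 in PyMT, and 131 beside 115 and 65.9 in FVB.

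Because 9 of the 12 epithelial markers rose as well, each gene was also expressed relative to the mean log2 level of the 12 epithelial markers, which is a description of composition and has no test here. The epithelial mean was 1.17, 1.53, 1.83 and 1.41 higher (log2) in PyMT at weeks 6, 8, 10 and 12. On this relative scale the 10 genes had a median PyMT minus FVB difference of -0.75, beside -1.51 over all tested genes. All 10 values were below 0, as were 93.3% of all tested genes. The PyMT minus FVB difference was -0.07 for Psat1 (-0.72 ± 0.35 in PyMT and -0.65 ± 0.47 in FVB, SD, n = 12 each), -0.07 for Pycr1, -0.27 for Aldh18a1, -0.34 for Shmt2 and -0.41 for Shmt1. For the genes without a call over all weeks it was -1.09 for Mthfd2, -1.16 for Atf4, -1.19 for Asns, -1.44 for Phgdh and -1.51 for Psph. For Atf4 the libraries separated, from -1.62 to -0.98 in PyMT and from -0.96 to 0.98 in FVB, as did 31.2% of all tested genes, with PyMT below FVB throughout.

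**Figure D3:**
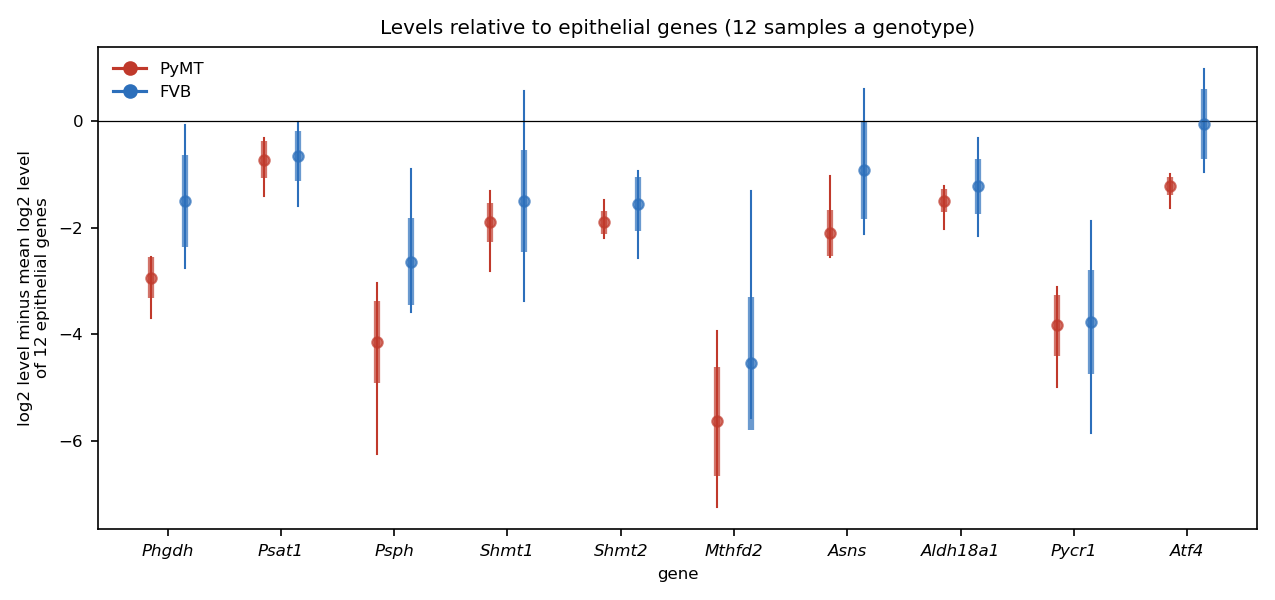
Log2 level of each of the 10 genes minus the mean log2 level of 12 epithelial markers, with the mean (point), SD (thick bar) and range (thin line) of the 12 PyMT (red) and 12 FVB (blue) libraries. The means of Psat1 and of Pycr1 differ by -0.07 each, while Psph and Phgdh lie lower in PyMT, at differences of -1.51 and -1.44.

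The plot of levels relative to epithelial markers pools the weeks. By week, 3 of the 10 genes were above 0 in the PyMT minus FVB difference at week 12, Pycr1 (1.26), Shmt1 (0.50) and Aldh18a1 (0.09). At week 6 Psat1 (0.62) and Mthfd2 (0.08) were above 0, and at week 8 Mthfd2 was (0.046). At week 10 all 10 genes were below 0, from -0.26 in Psat1 to -3.95 in Mthfd2. Of all tested genes, 92.3%, 91.7%, 90.3% and 91.5% were below 0 at weeks 6, 8, 10 and 12. Within the 12 FVB glands, Psat1 was correlated with the epithelial score (r = 0.71) and inversely with the muscle score (r = -0.69), as was Aldh18a1 with the muscle score (r = -0.71), while Psph ran with muscle (r = 0.72). Aldh18a1 (r = 0.65) and Shmt2 (r = 0.62) also ran with the epithelial score in FVB, beside 0.06 for Atf4, -0.37 for Psph and -0.38 for Asns. Within the 12 PyMT libraries Atf4 ran with the epithelial score (r = 0.74), as did Shmt2 (0.67), Phgdh (0.56) and Mthfd2 (0.51). Psph ran against it there (-0.56). These values describe libraries that share scaling and depth, and whether tissue composition accounts for the differences was not tested.

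Among the 10 genes themselves, the median Pearson r of log2 values over the 24 libraries was 0.29 for 45 pairs. The highest were Psat1 with Aldh18a1 (0.90), Shmt2 with Aldh18a1 (0.89) and Psat1 with Shmt2 (0.88). After the 8 group means were removed, Psat1 and Aldh18a1 still had r = 0.84 and Phgdh and Psat1 had 0.81. Phgdh and Psat1 thus varied together between libraries of a group, although the second rose in PyMT and the first did not pass the test. Their r with the muscle score was -0.45 and -0.69 in FVB, and -0.09 and 0.35 in PyMT. The part of tissue composition in their shared variation was not tested. Asns and Atf4 had r = 0.57 over the 24 libraries, 0.67 within PyMT, 0.30 within FVB and 0.50 after the group means were removed. The genes whose values were most like those of Aldh18a1 over the 24 libraries were Ppap2c (r = 0.964), Cldn7 (0.948, a claudin and 1 of the epithelial markers) and Lmo4 (0.942). For Atf4 they were Aars (0.795) and Farsb (0.765), which encode tRNA synthetase subunits, and Psmd3 (0.758). For Asns they were Mrpl41 (0.740), Pdxk (0.724) and Tmem14c (0.710), and for Phgdh Hnrnpul1 (0.670), Clec7a (0.638) and Sh3gl1 (0.634). All these libraries share their genotype contrast, so that r over 24 samples holds the group difference as well.

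Neighbouring enzymes moved in both directions over all weeks. In that comparison 8.7% of all tested genes were called higher and 17.5% lower, with a median log2 fold change of -0.03. Of 21 one-carbon and glycine enzymes described here (Sds was not tested), 5 rose and 1 fell, with a median log2 fold change of 0.11. Gldc, the decarboxylase of the glycine cleavage system, had a mean of 239 in PyMT and 9.32 in FVB (log2 5.06 ± 0.63, SE, adjusted p = 8.75e-07). By week its log2 fold change was 5.53, 4.14, 8.38 and 2.21 at weeks 6, 8, 10 and 12. Weeks 8 and 12 did not pass (adjusted p = 0.0813 and 0.214). Amt, the aminomethyltransferase of the same system, rose by 1.39 ± 0.28 (log2, adjusted p = 0.000246), and Aldh1l2, the mitochondrial formyltetrahydrofolate dehydrogenase, by 1.75 ± 0.34 (adjusted p = 0.000231). Its cytosolic counterpart Aldh1l1 went the other way, with a mean of 114 in PyMT and 1115 in FVB (log2 -3.33 ± 0.39, adjusted p = 4.47e-07). The others that rose were Tyms, the thymidylate synthase, and Mthfd1l, a mitochondrial folate enzyme just above a fold change of 2.

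Among 8 other genes of proline metabolism described here (Prodh2 was not tested), 5 fell and 3 were not called, with a median log2 fold change of -1.16. Of all tested genes, 17.5% were called lower. Prodh and Aldh4a1, which degrade proline to glutamate, fell by 1.67 ± 0.35 (log2, SE, adjusted p = 0.000474) and 1.62 ± 0.24 (adjusted p = 1.09e-05). P4ha2, a collagen prolyl hydroxylase, fell by 1.64 ± 0.30 (adjusted p = 9.42e-05), and P4ha1, another such hydroxylase, by 1.29 ± 0.13 (adjusted p = 4.53e-08), and Oat fell as well. Pycrl, a further proline-forming reductase (0.51), P4ha3, a further collagen prolyl hydroxylase (0.34), and Pepd, which releases proline from dipeptides (0.16), were not called, and are named after their values were seen. Over the same comparison 6 of 7 fibroblast markers were lower, and their part in these differences was not tested.

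Of 12 genes of aspartate, glutamate and asparagine metabolism, 2 rose and 4 fell, with a median of -0.26. Of all tested genes, 8.7% were called higher and 17.5% lower. Ass1, which joins citrulline and aspartate in the route to arginine, had a mean of 420 in PyMT and 29.0 in FVB (log2 3.94 ± 0.39, SE, adjusted p = 3.64e-08), and Asl, the next enzyme, rose as well. Glul, the glutamine synthetase, had a mean of 1288 in PyMT and 11904 in FVB (log2 -3.24 ± 0.26, adjusted p = 1.42e-09). Gpt, an alanine aminotransferase, fell by 2.35 ± 0.21 (log2, adjusted p = 7.34e-09) and Aspg, an asparaginase, by 1.84 ± 0.62 (adjusted p = 0.0179), and Gpt2 fell too.

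The known targets and partners of Atf4 did not move one way. Of 22 tested targets of the integrated stress response (Fgf21 was not tested), 2 rose and 6 fell, with a median log2 fold change of -0.04. Over all tested genes 8.7% were called higher and 17.5% lower, with a median of -0.03. The number of targets called higher and their median were thus near those of all tested genes. Slc7a5, the light chain of a leucine transporter, had a mean of 1425 in PyMT and 279 in FVB (log2 2.33 ± 0.32, SE, adjusted p = 3.10e-06), and Atf3 also rose. Slc1a5, a glutamine transporter, had a mean of 563 in PyMT and 7132 in FVB (log2 -3.71 ± 0.23, adjusted p = 4.25e-11). Stc2, a secreted glycoprotein, fell by 2.67 ± 0.33 (log2, adjusted p = 9.42e-07) and Chac1, which cleaves glutathione, by 2.81 ± 0.74 (adjusted p = 0.00317), as did Eif4ebp1, Atf5 and Vldlr. Of 18 aminoacyl-tRNA synthetases 17 had a positive difference, with a median of 0.58, but only Lars (1.06 ± 0.08, adjusted p = 1.00e-09) and Qars (1.06 ± 0.09, adjusted p = 3.30e-09) passed the fold change of 2. That number, too, was near the share of all tested genes called higher. None of the 7 kinases and other regulators of the response was called, with a median of 0.02.

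**Figure D4:**
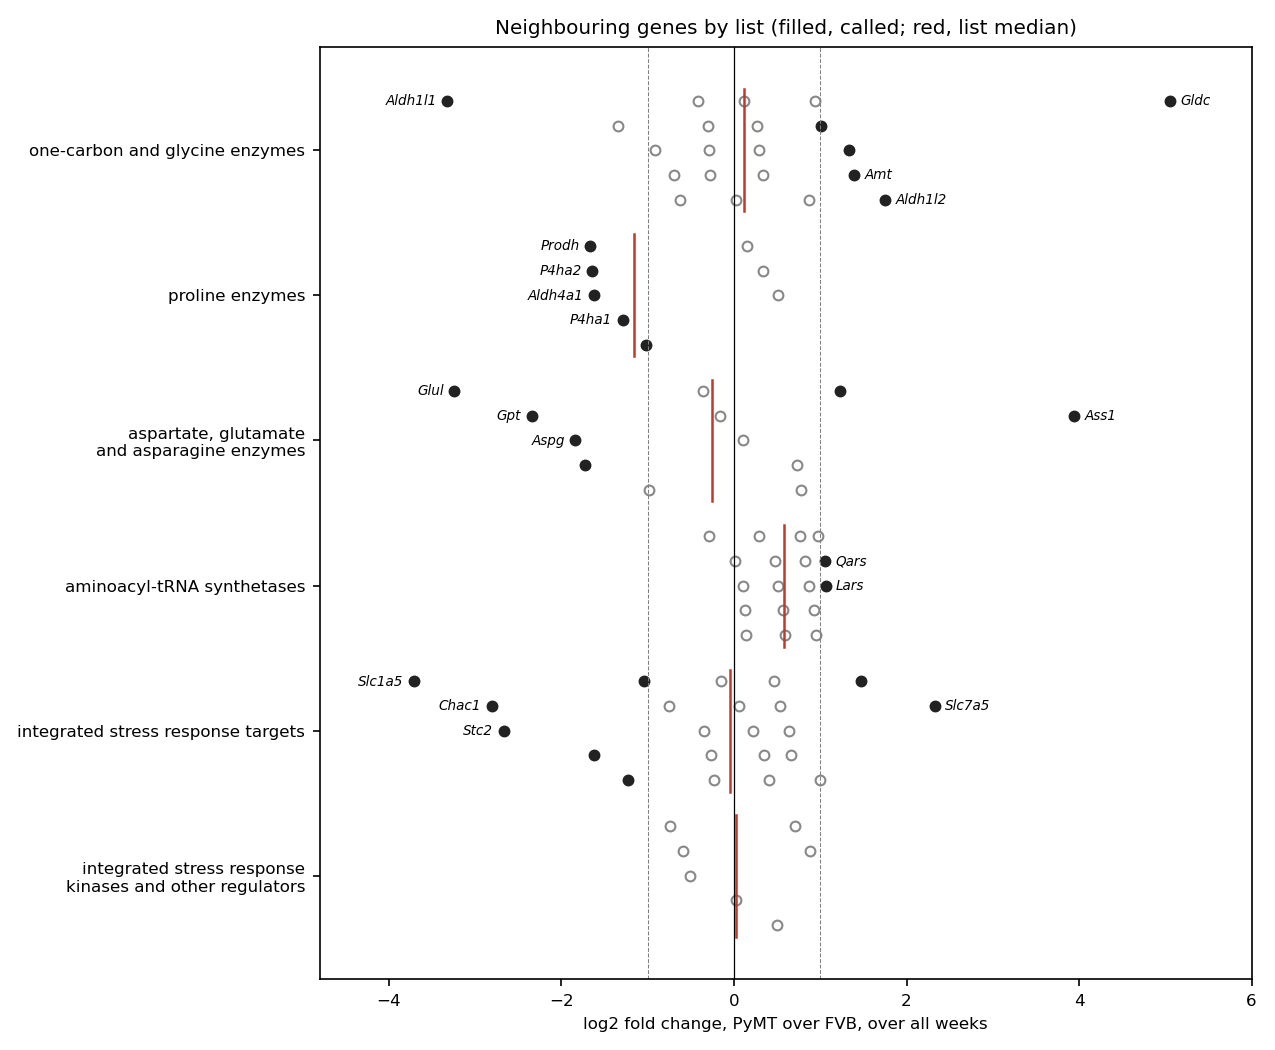
Log2 fold change of PyMT against FVB over all weeks for each tested gene of 6 neighbouring lists, with called genes filled, a red line at the median of each list and dashed lines at a fold change of 2. All tRNA synthetases but 1 lie above 0, with a median of 0.58, while 5 of the 8 proline genes lie below -1, down to Prodh at -1.67.

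In the plot of neighbouring lists the direction of single genes near 0 depended on scaling. With library size only, the tRNA synthetases called higher went from 2 to 8, the one-carbon and glycine enzymes from 5 to 7, and the aspartate, glutamate and asparagine genes from 2 to 4, while the proline genes called lower went from 5 to 3 and the stress response targets called lower from 6 to 4. The median of the aspartate, glutamate and asparagine genes turned from -0.26 to 0.10 and that of the stress response targets from -0.04 to 0.25, beside a median of all genes of 0.26 under that scaling. With RLE scaling, the one-carbon and glycine enzymes called higher went from 5 to 4. The aspartate, glutamate and asparagine genes called lower went from 4 to 5 there. Adipocyte markers, whose mean level differed by -4.15 (log2, PyMT minus FVB), moved beside the genes that fell, and their part in these was not tested.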

How the data were processed

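Gene expression was measured in 24 mouse mammary samples, 8 groups of 3 defined by genotype and week. After adapter trimming, the authors used GSNAP for alignment to mm9 and HTSeq to count reads per Ensembl gene, and they deposited these raw counts with no normalization. The gene annotation and the strand setting of the counting are not given in the sources used here. Symbols, coordinates and exon lengths were taken from GENCODE M1, which matched 37205 of 37991 identifiers. No column lacked a sample.

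Genes with at least 1 CPM (counts scaled to library size) in at least 12 of 24 samples were tested in R 4.3.3 with edgeR 4.0.16, by the quasi-likelihood test after TMM scaling with Benjamini-Hochberg adjustment over all 14918. Each week was fitted on its 6 samples. The difference over all weeks (the mean of the 4 weekly differences) and the comparisons of weeks were fitted on 24 samples in 8 groups. Calls required an adjusted p < 0.05 together with an absolute log2 fold change > 1. The SE is the log2 fold change over the square root of F. Normalized counts are counts over DESeq2 1.42.0 size factors, with a pseudocount of 1 on the log2 scale for marker scores and correlations. Summaries used Python 3.11.15, pandas 2.3.3, NumPy 2.4.6 and matplotlib 3.10.9. The chi-square per gene between replicates was 16.1 to 207 over 24 pairs, where copies of a library would give about 1. With 1 library per mouse, p-values measure the spread between mice together with that of library preparation.

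In data simulated from these means with 200 genes changed 4-fold among 14918, the fit recovered 46% at week 12 (8 of 100 calls wrong), 82.5% over all weeks (2 of 167 wrong) and 30% for the change of the difference between weeks 6 and 12 (3 of 63 wrong). Alternatives were RLE and library-size scaling, no filter, edgeR's exact test, a joint fit of the weeks, DESeq2's Wald test, a replicate block, and libraries left out. The genes and lists were chosen with earlier results of these data known, and genes of a list are named when called over all weeks, up to 4 with the largest change with values. For Phgdh, Asns, Aldh18a1 and Atf4 the 3 most correlated genes are named. Same-numbered PyMT and FVB samples deviated together with r over 0.1 in 4 of 12 pairs, while r between differently numbered samples reached at most 0.091. Of the 12 PyMT samples, 6 had their highest r with the FVB sample of their number. The numbers were not taken as pairs in the main fit, and the replicate block was the alternative for such a structure. Promoters come from RefSeq (GRCm38.p6). Some genes of the neighbouring lists are not reported here, and the counts and medians of those lists leave them out.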

Additional observations from a re-analysis of the deposited data

Results flagged for a closer look

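Mthfd2 stood out because its direction turned between neighbouring weeks. All 3 PyMT libraries were above all 3 FVB libraries in week 8 (log2 difference 1.61) and below them at week 10 (-2.06). The change of the difference from week 8 to week 10, a test added after seeing the data, was -3.69 ± 1.07 on the log2 scale (SE, edgeR's quasi-likelihood test in the fit of 24 samples, unadjusted p = 0.00236, adjusted p = 1.00, DESeq2 adjusted p = 0.129). Of all 14918 tested genes 1 was called (0.0067%) and 533 had an unadjusted p under 0.05, while DESeq2 called 7. The mean normalized counts of weeks 8 and 10 were 23.3 and 91.2 in FVB and 71.2 and 20.9 in PyMT.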

How the results depend on the processing

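Of 957 values of 67 results of the 10 genes under the alternatives, 898 kept their direction and their side of the threshold, 29 lost a call, 10 gained 1 and 20 turned sign. Over all weeks the count of called genes stayed at 5 in every alternative but the one without the muscle-rich libraries, where it was 4. By week, DESeq2's Wald test gave 2 called genes at week 10, with Mthfd2 lower beside Psat1. It called 2918 of all 14918 tested genes in that week, where edgeR called 720 higher and 1356 lower. With each library left out, the counts were 0 to 2 at week 6, 0 to 3 at week 8, 0 to 3 at week 10, 3 to 5 at week 12 and 5 to 5 over all weeks, and 0 to 0 in the 3 comparisons of week 12 with week 6. Signs turned only in values that had not passed the test. With library size only these were Psph (0.11) and Asns (0.10) at week 10, Asns at week 12 (0.14) and Phgdh over all weeks (0.22). The replicate block turned Phgdh over all weeks to 0.0148 and left the counts of called genes at 3, 3, 1, 4 and 5. With each library left out, Phgdh ranged from -0.0151 to 0.89, -0.0900 to 0.92 and -1.01 to 0.15 in weeks 6, 8 and 12, and from -0.18 to 0.13 over all weeks. Psph ranged from -0.25 to 0.50, -0.11 to 0.72 and -0.0269 to 0.20 at weeks 6 and 8 and over all weeks, and Shmt1 from -0.35 to 0.0079 between weeks 6 and 12 in PyMT. The cause of these shifts was not tested. With 3 mice a group, the test of week 12 recovered 46% of simulated 4-fold changes, so that a gene without a call in a week may still differ.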
